A study of Drosophila melanogaster with 33 samples.

Results

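Eye-antennal discs of Drosophila melanogaster larvae in which clones carried a hyperactive Yorkie and no functional Scalloped (yki3SA sd-) were compared with discs carrying control clones (ctrl). The comparison rests on 12 of the 33 libraries of the series, chosen by the group given in their labels: 5 yki3SA sd- and 7 ctrl libraries. Each library was made from RNA of at least 30 whole discs dissected 5 days after egg laying at 25 °C and was sequenced from transcript 3′ ends. The libraries came in a first set and in a second set marked B2 in the labels, called run 1 and run 2 here. There were 3 yki3SA sd- and 5 ctrl libraries in run 1, and 2 yki3SA sd- and 2 ctrl libraries in run 2. Discs with yki3SA clones (5 libraries in run 1 and 1 in run 2) and with sd- clones (3 and 2 libraries) are used only to place the comparison.

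The yki3SA sd- clones were homozygous for sd47M on FRT19A and expressed UAS-yki3SA and UAS-GFP, with ey-FLP as recombinase and an actin 5C flip-out Gal4 as driver, in both runs. The sd- clones had the same chromosomes without UAS-yki3SA. The yki3SA clones of run 1 carried a plain FRT19A chromosome with UAS-yki3SA, whereas those of run 2 were made on FRT42D with a tub-Gal4 driver. The ctrl clones carried FRT19A, the flip-out driver and UAS-GFP in run 1, but FRT42D, tub-Gal4 and UAS-GFP in run 2. All groups used the Gal80-repressed clone method MARCM, in which only cells that lose tub-Gal80 by mitotic recombination express the transgenes. Within run 2 the yki3SA sd- and ctrl discs thus differ in FRT chromosome and driver as well, and these cannot be told apart there. Each library holds RNA of the clones together with that of all other cells of the disc, so that fewer cells of a type and less RNA per cell cannot be told apart.

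Yorkie (Yki) is the transcriptional coactivator restrained by the Hippo kinase cascade, in which Warts (Wts) phosphorylates Yki and keeps it in the cytoplasm. The yki3SA form lacks Warts phosphorylation sites and therefore remains active. Yki does not bind DNA itself: the TEAD-family protein Scalloped (Sd) is its best-known DNA-binding partner, and without Yki Sd can hold target genes in a repressed state. In the eye disc, retinal determination genes and the morphogenetic furrow normally lead cells into neuronal differentiation. The question addressed by the comparison is how near to the control state Yki-active discs stand once Sd is lost, and which genes remain changed.

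Total counts ranged between 4874192 and 9946422 in the run 1 yki3SA sd- libraries and between 17071389 and 18516696 in those of run 2, against 8084987 to 15273835 and 18627105 to 19128356 in the ctrl libraries. The labels do not state whether libraries of a group came from separate crosses, so p-values measure only the spread between these samples, which may be technical. That spread was estimated for each gene over all 4 groups together. The SE and p-values of yki3SA sd- therefore do not rest on the spread of its own libraries alone. Levels below are CPM, counts scaled to a common library total with edgeR's TMM factors, and log2 fold changes, their standard errors (SE) and adjusted p-values are from edgeR's quasi-likelihood test with Benjamini-Hochberg adjustment over all 8927 genes tested in the 23 MARCM libraries, with run as a term. A gene is called at an adjusted p below 0.05. Levels differ between runs and are compared only within a run.

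Libraries 1 and 2 of the run 1 yki3SA sd- discs stood apart. Among the genes with at least 100 counts in every run 1 ctrl library, 45 and 203 were below 0.1 of the ctrl mean in these libraries, against 1 in library 3 and 0 in each of the 5 ctrl libraries. The summed level of 340 small RNA genes was 2033, 3674 and 1964 CPM in yki3SA sd- libraries 1, 2 and 3 of run 1, against 704 to 1073 CPM in run 1 ctrl. Library 3 of the run 1 sd- discs shared this, with 2011 CPM and 7 such low genes, and it also held 259 CPM of roX1, an X-chromosome dosage compensation RNA of males, against at most 11.3 CPM in every other run 1 library, although the genotype in its label, with different X chromosomes from each parent, is that of females. Hemocyte markers moved too: the summed level of 12 markers was 921 to 3504 CPM in run 1 yki3SA sd- libraries against 267 to 606 CPM in run 1 ctrl, but 94.1 and 119 CPM in run 2 yki3SA sd- libraries against 174 and 220.0 CPM in run 2 ctrl. The part of these features in the results was not tested. Results are therefore given with all libraries and without the yki3SA sd- libraries 1 and 2 of run 1, a setting chosen after these libraries were seen. In that setting library 3 is the only yki3SA sd- library of run 1.

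The manipulated genes checked the genotypes only weakly. The level of yki was 5.4, 2.87 and 10.4 CPM in run 1 yki3SA sd- libraries, against 28.1, 19.9, 28.4, 56.3 and 60.6 CPM in run 1 ctrl. In run 2 it was 99.1 and 110.2 CPM in yki3SA sd- and 67.1 and 64.1 CPM in ctrl. The transgene was visible as a high yki level in the single run 2 yki3SA library alone, at 2146 CPM; run 1 yki3SA libraries held 47.7 to 85.5 CPM. Neither the part of sd that sd47M alters nor the 3′ end of the transgene is described in the labels, so the levels of yki and sd do not check the genotype of the yki3SA sd- libraries. The level of sd was 391, 278 and 301 CPM in run 1 yki3SA sd- libraries, all below the 399 to 479.7 CPM of run 1 ctrl, and 215 and 205 CPM in run 2, below the 236 and 229 CPM of run 2 ctrl. The fall in sd was small (log2 fold change -0.35 ± 0.10 SE, edgeR adjusted p = 0.0287; adjusted p = 0.195 without libraries 1 and 2). The level of wts rose by 0.52 ± 0.14 on the log2 scale (adjusted p = 0.0238), and by 0.25 without those libraries (adjusted p = 0.501).

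The summed level of eye-antennal disc markers overlapped that of the controls, while single members moved in run 1. The 12 eye-antennal disc markers, among them the retinal determination genes ey, toy, eya, so and dac and the antennal genes Dll and Lim1, summed to 5441 to 6470 CPM in run 1 yki3SA sd- libraries and to 5810 to 6626 CPM in run 1 ctrl. In run 2 they summed to 1989 and 2023 CPM in yki3SA sd- and to 1985 and 2004 CPM in ctrl. None of the 12 was called in yki3SA sd- against ctrl, whereas 11 were called lower in yki3SA against ctrl. In run 1 alone 3 of the 12 were called higher and 2 lower in yki3SA sd-, where 39.3% of all genes were called. The run 1 sum is mostly that of hth, a homeobox gene, at 5004, 3586 and 4647 CPM in yki3SA sd- libraries against 4457 to 5301 CPM in ctrl. The retinal determination gene eya stood at 17.6, 43.6 and 26.6 CPM in run 1 yki3SA sd- libraries against 38.1 to 82.1 CPM in ctrl, and at 296 and 291 CPM in run 2 against 275 and 287 CPM. All 12 had counts in each of the 12 libraries.

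The distance of a library from the controls was measured as the root mean square, over all tested genes, of its log2 CPM difference from the ctrl mean of its run. In run 2 the yki3SA sd- libraries lay at 0.4998 and 0.554, against 1.45 for the yki3SA library, 0.422 and 0.389 for sd- and 0.354 for each ctrl library. The ctrl value is shared by construction, since each of the 2 is measured from the other. In run 1 the yki3SA sd- libraries lay at 1.25, 1.80 and 0.706. The 5 yki3SA libraries of run 1 lay between 0.974 and 1.14, the 3 sd- libraries at 0.513, 0.4998 and 0.990, and the 5 ctrl libraries between 0.409 and 0.502. Library 3 and both run 2 libraries thus lay nearer to the controls than any yki3SA library of their run, and libraries 1 and 2 lay farther than all of them.

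**Figure D1:**
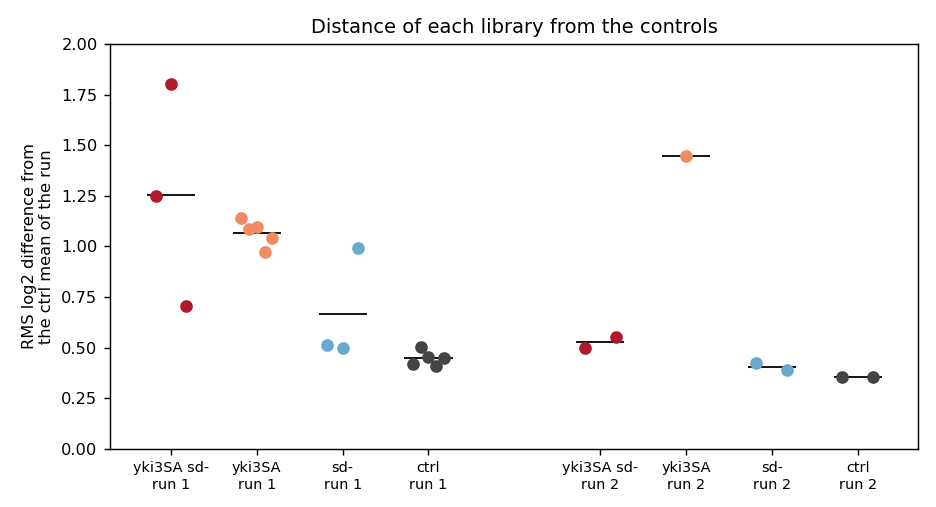
Root mean square log2 difference of each library (point) from the ctrl mean of its run over all tested genes, by group and run; horizontal bars are group means. The run 2 yki3SA sd- libraries lie at 0.4998 and 0.554, near sd- and ctrl, while those of run 1 spread between 0.706 and 1.80.

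Over run 1, the yki3SA sd- distances averaged 1.25 ± 0.549 (SD, n = 3) and the yki3SA distances 1.07 ± 0.0628 (SD, n = 5), a difference of 0.184 that an exact two-sided permutation test did not separate (p = 0.571). Without library 2 the difference turned to -0.09, and again did not pass the test (exact permutation p = 0.571). Against ctrl, at 0.446 ± 0.0363 (SD, n = 5), the yki3SA sd- distances were larger by 0.806, with an exact two-sided permutation p = 0.0357, which is the smallest that 3 against 5 libraries can give. Against sd-, at 0.668 ± 0.280 (SD, n = 3), the difference was 0.585 (exact permutation p = 0.2, where 0.1 is the smallest possible). The sign of the difference from yki3SA in run 1 therefore depended on library 2. Library 3, at 0.706, also lay farther out than every run 1 ctrl library, at 0.409 to 0.502.

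Distance along the genes that hyperactive Yki changes gave a clearer picture. Genes at least 4-fold higher or lower in the run 2 yki3SA library than in run 2 ctrl, with at least 10 CPM in the higher, were read in the run 1 libraries, which took no part in the choice. For the 180 genes chosen as higher, the mean log2 level relative to run 1 ctrl was -0.38, -0.54 and -0.03 in the 3 yki3SA sd- libraries, against 2.21 to 2.41 in the 5 yki3SA libraries. For the 364 genes chosen as lower it was -0.10, -0.22 and -0.03 in yki3SA sd- libraries, against -2.25 to -1.79 in yki3SA libraries. Individual ctrl libraries ranged between -0.04 and 0.04 for the first set and between -0.07 and 0.08 for the second. Libraries 1 and 2 thus lay at or below the ctrl level on both sets: their large general distance did not run along the yki3SA change.

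The reverse reading, added after the data were seen, gave the same in the deeper libraries. Genes at least 4-fold changed in run 1 yki3SA against run 1 ctrl, with no overlap and at least 10 CPM, were read in run 2. The 121 genes chosen as higher stood at 0.05 and 0.23 on the log2 scale in the run 2 yki3SA sd- libraries, against 3.07 in the yki3SA library. The 246 genes chosen as lower stood at 0.13 and 0.14 in the yki3SA sd- libraries and at -4.14 in the yki3SA library. The sd- libraries of run 2 stood between 0.03 and 0.17 on the same sets.

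**Figure D2:**
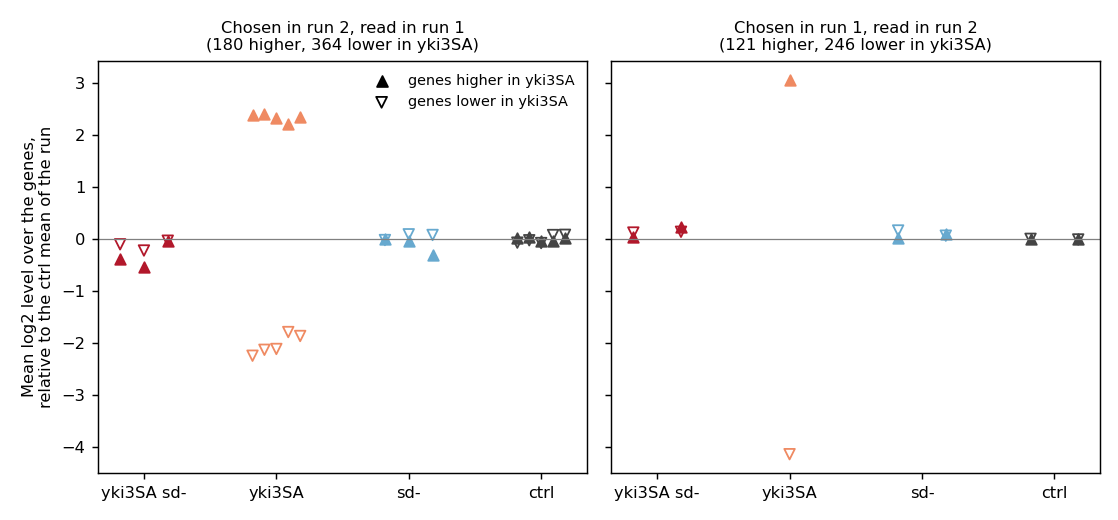
Mean log2 level, relative to the ctrl mean of the run, of genes chosen by their change in yki3SA in one run and read in the other; each symbol is 1 library, filled for genes higher and open for genes lower in yki3SA. The yki3SA sd- libraries lie between -0.54 and 0.23, while yki3SA libraries lie beyond -1.79 and 2.21.

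Calls over those sets were read in a fit of run 1 alone. Of the 175 tested genes of the higher set, 32 were called higher and 37 lower in yki3SA sd- against ctrl, with a median log2 fold change of -0.06; over all 8372 genes of that fit 39.3% were called and the median was -0.08. In yki3SA against the same ctrl libraries, 152 were called higher and 1 lower, with a median of 2.33, where 27.1% of all genes were called. Of the 356 tested genes of the lower set, 71 were called higher and 51 lower in yki3SA sd- (median 0.01), against 1 higher and 331 lower in yki3SA (median -2.25). The share of the sets called in yki3SA sd- was close to the share of all genes.

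Some genes of these sets differed from ctrl in the direction of yki3SA in one run. A gene was counted when every yki3SA sd- library of the run differed at least 2-fold from the ctrl mean, in the direction of yki3SA, without overlap with ctrl. Of the 246 genes lower in run 1 yki3SA, 7 met this in run 2 (2.85%), against 97 of all 8927 genes (1.09%). They were the larval serum protein genes Lsp1beta and Lsp2, the prophenoloxidase genes PPO1 and PPO2, Nplp2, CG32368 and CG9150. The run 2 yki3SA library was below both run 2 ctrl libraries for PPO1, CG32368 and CG9150 only. It lay between them for PPO2, Lsp1beta (64.4 CPM against 79.8 and 7.2 CPM) and Lsp2 (13.5 CPM against 60 and 5.36 CPM). For Nplp2 it lay above them (10.6 CPM against 3.32 and 1.41 CPM). PPO1 and PPO2, enzymes of hemocyte melanisation, went opposite ways in the runs: PPO2 stood at 2528, 850.4 and 485 CPM in run 1 yki3SA sd- libraries against 101 to 309 CPM in run 1 ctrl, but at 0.447 and 2.87 CPM in run 2 against 54.5 and 31.8 CPM. Of the 364 genes lower in run 2 yki3SA, 8 met the criterion in run 1 (2.20%), a smaller share than the 305 of all genes (3.42%): Gal, Spn43Aa, CG15905, pain, CG5653, St2, CG17323 and Ugt58Fa. In run 2, whose ctrl libraries took part in the choice, yki3SA sd- libraries were below both ctrl libraries for Gal, Spn43Aa, pain and St2. Gal held 13.8 and 11.4 CPM against 19.2 and 21.2 CPM, and Spn43Aa 352 and 275 CPM against 426 and 509 CPM. The sulfotransferase gene St2 held 55.5 and 51.4 CPM against 57.5 and 60.9 CPM. They were above both for CG17323 and CG5653 (37 and 36.9 CPM against 26.8 and 28.9 CPM). For CG15905 and Ugt58Fa they overlapped ctrl.

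On the upward side, 8 of the 121 genes higher in run 1 yki3SA met the criterion in run 2 (6.61%), against 202 of all genes (2.26%). They were CG41520, CG1698, trh, CG32364, bond, CG3588, Spn47C and CG17374. CG3588 was at 0 CPM in the run 2 yki3SA library and in both run 2 ctrl libraries. The tracheal regulator gene trh stood at 3.75 and 4.63 CPM in run 2 yki3SA sd- libraries against 1.03 and 2.04 CPM in ctrl and 41.6 CPM in the yki3SA library. The fatty acid elongase gene bond stood at 4.3 and 5.13 CPM, against 0.889 and 2.24 CPM in ctrl and 133 CPM in yki3SA. In run 1 neither was clear of ctrl: trh stood at 0.386, 0 and 0.751 CPM in yki3SA sd- libraries against 0 to 2.28 CPM in ctrl, and bond at 0, 2.4 and 2.88 CPM against 0.199 to 2.42 CPM. Of the 180 genes higher in run 2 yki3SA, 3 met it in run 1, a share near that of all genes (1.67% against 1.33%): obst-E, Tie and CG5278. The receptor tyrosine kinase gene Tie held 40.8, 29.2 and 24.5 CPM in run 1 yki3SA sd- libraries, all above the 3.72 to 6.48 CPM of run 1 ctrl, but 8.11 and 11.9 CPM in run 2, overlapping the 9.68 and 9.7 CPM of run 2 ctrl.

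Over all genes, 1491 of 8927 (16.7%) were called in yki3SA sd- against ctrl. Of these 1045 were higher (11.7% of the tested genes) and 446 lower (5.0%), and 366 changed at least 2-fold. In yki3SA against ctrl 3070 genes were called (34.4%), 1605 of them at least 2-fold, and in yki3SA sd- against yki3SA 4731 (53.0%). In sd- against ctrl 9 genes were called (0.101%). Without libraries 1 and 2, 45 of 9204 genes were called in yki3SA sd- against ctrl (0.489%), 24 higher and 21 lower, and 38 of the 45 changed at least 2-fold. Leaving out library 1 alone left 285 calls and leaving out library 2 alone left 101. In a fit of the yki3SA sd- and ctrl libraries alone, with their own spread, 53 of 8317 genes were called. The same kind of fit for yki3SA against ctrl called 4025 of 8076.

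The runs on their own gave 3291 calls of 8372 genes in run 1 (39.3%) and 1090 of 9521 in run 2 (11.4%). The median absolute log2 fold change was 0.59 in run 1 and 0.16 in run 2. For yki3SA against ctrl it was 0.32 in run 1 and 0.49 in run 2. Across 5925 genes tested in both runs and averaging 10 CPM or more, the run 1 and run 2 changes of yki3SA sd- had a Pearson r of 0.01 and a Spearman rho of 0.21, and 3508 had the same sign. The runs share no library. This correlation is across genes, which are not independent replicates. A test of the difference between the runs called 333 of 8927 genes.

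**Figure D3:**
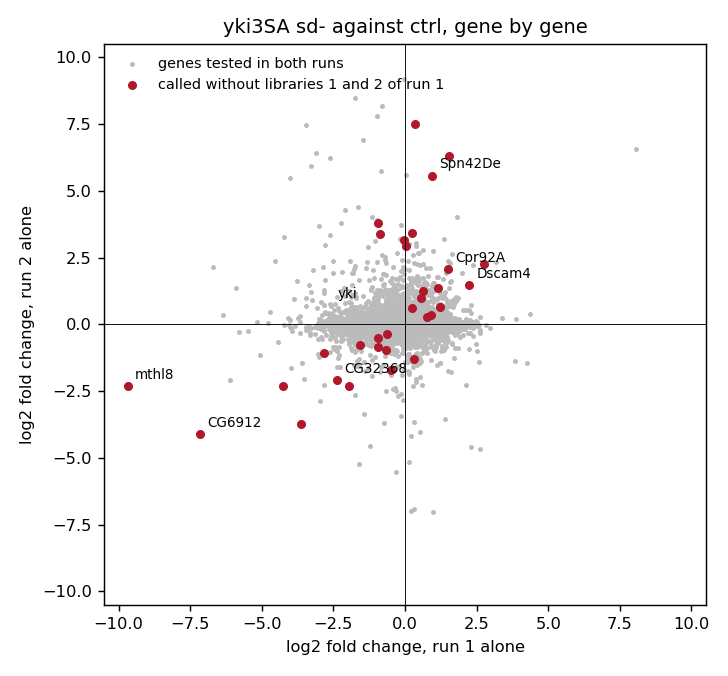
Log2 fold change of yki3SA sd- against ctrl in run 1 alone (x axis) and in run 2 alone (y axis); each point is a gene, and red points are genes called without libraries 1 and 2 of run 1. Most genes spread along the run 1 axis, while genes such as CG6912, CG32368 and Dscam4 change in the same direction in both runs.

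The genes that stayed low were few, and the clearest are an RNA gene and a pair of neighbours. CG32368, a long non-coding RNA gene on chromosome 3L (7915437 to 7915846, plus strand, dm6), held 2.31, 3.11 and 1.38 CPM in run 1 yki3SA sd- libraries, all below the 14.6, 7.83, 7.21, 15.7 and 12 CPM of run 1 ctrl. In run 2 it held 0.619 and 0.502 CPM, below 2.15 and 2.7 CPM. Its log2 fold change was -2.26 ± 0.31 SE (edgeR adjusted p = 0.000449) and -2.40 without libraries 1 and 2 (adjusted p = 0.00453). It was as low in yki3SA libraries, at 1.02 to 3.13 CPM in run 1 and 0.425 CPM in run 2. The sd- libraries held 6.95, 4.2 and 3.22 CPM in run 1 and 0.677 and 1.02 CPM in run 2, below every ctrl library of their run.

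CG6912 on chromosome 3R (15135138 to 15137004, minus strand), which was named after its values were seen because its ctrl mean in run 1, where the limit of 10 CPM was applied, lies below that limit, held 0.129, 0 and 0 CPM in run 1 yki3SA sd- libraries against 7.76, 11.5, 12.1, 7.83 and 6.57 CPM in run 1 ctrl. In run 2 it held 1.31 and 1.54 CPM against 26.7 and 23.8 CPM. It fell by 5.21 on the log2 scale (SE 0.68, edgeR adjusted p = 0.000374). Its neighbour CR45600, a non-coding RNA gene on the same strand whose annotated span (15136985 to 15140121) overlaps CG6912, moved in parallel, at 1.82 and 3.19 CPM in run 2 yki3SA sd- libraries against 36.5 and 30.9 CPM in ctrl. Its log2 fold change was -4.07 ± 0.71 SE (edgeR adjusted p = 0.00441). How reads over overlapping genes were assigned is not stated, so the 2 values may share reads. In yki3SA libraries CG6912 held 0.201 to 0.341 CPM in run 1 and 10.7 CPM in run 2, and sd- libraries held 2.34 to 9.35 CPM in run 1 and 12 and 9.71 CPM in run 2.

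CG9150 had the second largest fall, after CG32368, among the genes named by rule as low in both yki3SA sd- and yki3SA. It held 3.47, 9.58 and 11.3 CPM in run 1 yki3SA sd- libraries against 16.3 to 27.5 CPM in run 1 ctrl, and 9.35 and 8.79 CPM against 25.5 and 23.8 CPM in run 2. The log2 fold change was -1.42 in each run alone, and -1.41 ± 0.35 SE in all (edgeR adjusted p = 0.0204; adjusted p = 0.21 without libraries 1 and 2). The fall was partial: yki3SA libraries held 0.953 to 2.23 CPM in run 1 and 0.382 CPM in run 2, and the rise of yki3SA sd- over yki3SA was 2.85 on the log2 scale (edgeR adjusted p = 8.98e-06). Most sd- libraries were at the ctrl level, at 25.7, 20, 5.16, 23.2 and 23.4 CPM.

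In both yki3SA sd- and yki3SA, 34 genes (0.381% of those tested) were called lower than ctrl. Taken singly, 446 were called lower in yki3SA sd- and 1528 in yki3SA, and the 2 comparisons share the ctrl libraries. By the rule for naming, 13 genes (0.146%) were called lower in both without overlap in either run. Beside CG32368 and CG9150, the 10 with the largest falls were Inos, which encodes inositol-3-phosphate synthase, CG14715, CHKov2, the long non-coding RNA gene CR42861, elgi, the axon guidance gene comm2, CG32473 and the receptor-like gene otk. All 8 fell by less than CG9150, and otk fell least, by 0.44 on the log2 scale. In run 2 alone their log2 fold changes lay between -0.41 and -0.03, and without libraries 1 and 2 none of these 8 was called. Inos, for example, held 22.6, 11.7 and 48.5 CPM in run 1 yki3SA sd- libraries against 58.1 to 71.8 CPM in run 1 ctrl, and 53.6 and 56.5 CPM against 70 and 66.4 CPM in run 2.

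In both yki3SA sd- and yki3SA, 163 genes (1.83% of those tested) were called higher than ctrl. Taken singly, 1045 were called higher in yki3SA sd- and 1542 in yki3SA. Genes that stayed high numbered 42 by the same rule (0.470%), and the named ones divide by run. Dscam4, a cell adhesion gene of the Dscam family, held 29.2, 28.5 and 27.6 CPM in run 1 yki3SA sd- libraries, far above the 3.68 to 7.12 CPM of run 1 ctrl. In run 2 it held 16.2 and 28.4 CPM against 10.7 and 5.79 CPM. Its log2 fold change was 1.96 ± 0.26 SE (edgeR adjusted p = 0.000396) and 1.83 without libraries 1 and 2 (adjusted p = 0.00453). Yki3SA libraries held 14.1 to 18.3 CPM in run 1 and 25.9 CPM in run 2, and the run 1 sd- libraries, at 10.1, 14.1 and 24.8 CPM, were above every run 1 ctrl library. Arc1, which encodes a Gag-like capsid protein, rose by 0.91 ± 0.21 SE on the log2 scale (edgeR adjusted p = 0.0184), and by 1.14 without those libraries (adjusted p = 0.0328). It held 27.9 and 38.3 CPM in run 2 yki3SA sd- libraries against 13.6 and 14.5 CPM in ctrl, and 58.6, 45.3 and 57.8 CPM in run 1 against 32 to 41 CPM, beside 425 to 492 CPM in run 1 yki3SA libraries. The sd- libraries were above every ctrl library of their run too, at 52.2, 43.1 and 49.5 CPM in run 1 and 20.2 and 25.3 CPM in run 2.

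The chitin-binding matrix gene obst-E, the serpin gene Spn47C and CG32364 (tut) rose in both runs as well, by 1.15, 2.39 and 2.24 on the log2 scale in all libraries; their adjusted p was 0.155, 0.11 and 0.197 without libraries 1 and 2. For obst-E the yki3SA sd- level of 9.39, 6.47 and 7 CPM in run 1 compared with 2.29 to 4.31 CPM in ctrl and 29.7 to 65.2 CPM in yki3SA, and the sd- libraries held 2.73 to 3.42 CPM. Spn47C and CG32364 were also high in sd- libraries. Spn47C held 9.38 and 12 CPM in run 2 yki3SA sd- libraries, 24.7 and 27.2 CPM in sd-, 2.8 CPM in yki3SA and 0.855 and 0.493 CPM in ctrl. CG32364 held 1.62 and 1.76 CPM in run 2 yki3SA sd- libraries, 10.2 and 9.1 CPM in sd-, 8.62 CPM in yki3SA and 0.376 and 0.362 CPM in ctrl, and was called in sd- against ctrl (log2 fold change 3.21, edgeR adjusted p = 0.000998). The metabolic gene CG5028 (Idh3g), CG40472, the chitinase gene Cht6 and CG32082 (IRSp53) rose by 1.00 to 1.78 in all libraries but by 0.17 to 0.37 in run 2 alone. CG13631, the last of the 10, rose by 0.94 in all libraries, by 1.09 in run 1 and by 0.58 in run 2.

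About as many strong yki3SA changes met the rule for returned genes as did not. The rule drew on the 394 genes called at least 4-fold changed in yki3SA against ctrl with 10 CPM or more; 203 of them were called back in yki3SA sd- against yki3SA with a 95% interval against ctrl inside 2-fold (51.5%). Of all 8927 genes, 4775 (53.5%) had that interval inside 2-fold. These contrasts share libraries, and the count is the rule's own. Among those returned from high, vg, which encodes the wing selector cofactor that binds Sd, held 2.44, 4.07 and 2.75 CPM in run 1 yki3SA sd- libraries against 2.69 to 5.24 CPM in ctrl and 94.6 to 125 CPM in yki3SA. In run 2 it held 2.37 and 2.04 CPM against 1.98 and 1.84 CPM in ctrl and 64 CPM in yki3SA. The PDGF- and VEGF-like ligand gene Pvf3 held 12.9, 11 and 11.9 CPM in run 1 yki3SA sd- libraries, slightly under the 13.7 to 18.6 CPM of ctrl, where yki3SA libraries held 363 to 463 CPM.

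The Toll-ligand gene spz5, the membrane-contact gene Esyt2 and the uncharacterised genes CG32512 and CG17104 were the others. Their log2 fold changes lay between -0.20 and 0.32 in yki3SA sd- against ctrl and between 4.51 and 4.82 in yki3SA against ctrl. CG32512 and CG17104 were highest in library 2, at 77.1 and 44.1 CPM against at most 31 and 20.1 CPM in run 1 ctrl, and below ctrl in run 2, at 15.4 and 13.3 CPM against 28.4 and 23.1 CPM for CG32512 and at 2.54 and 3.41 CPM against 7.73 and 7.2 CPM for CG17104. Without libraries 1 and 2, CG17104 was called lower than ctrl (log2 fold change -1.01, edgeR adjusted p = 0.0113).

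Those returned from low were CG1273, Side, the RNA-binding protein gene sm, the matrix metalloprotease inhibitor gene Reck, the glial glycoprotein gene ana and yellow-e2. Their log2 fold changes were between -0.21 and 0.29 in yki3SA sd- against ctrl, where yki3SA against ctrl gave -3.95 to -3.56. For CG1273 the yki3SA sd- levels were 66.2, 68.3, 56.7, 76.1 and 57.1 CPM over the 5 libraries, with ctrl between 44.5 and 77.6 CPM and yki3SA between 0.127 and 7.36 CPM. In run 1 the groups overlapped for 5 of these 6. The exception was ana, which was below ctrl in run 1 (24.3, 34.5 and 36.5 against 43.4 to 50.8 CPM) and above it in run 2 (62.4 and 59.1 against 29.5 and 32.2 CPM).

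**Figure D4:**
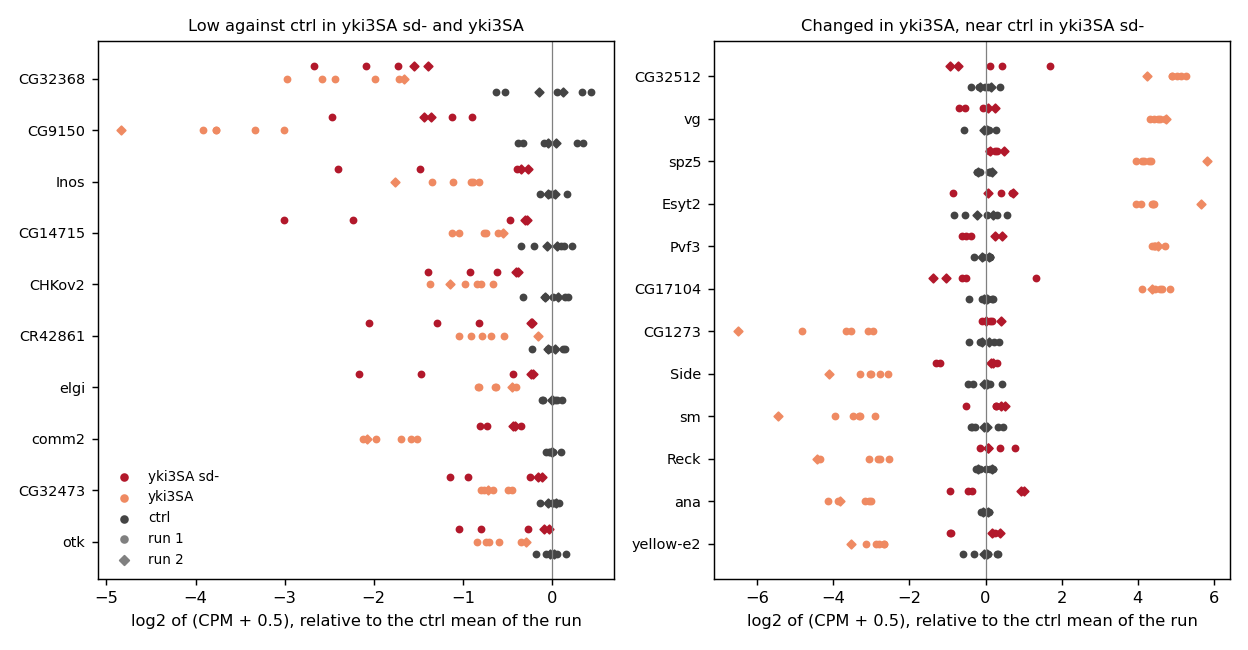
Level of each gene in each library as log2 of CPM plus 0.5, relative to the ctrl mean of its run (circles run 1, diamonds run 2), for genes low against ctrl in both genotypes (left) and genes returned to the ctrl level (right). CG32368 and CG9150 are low in all 5 yki3SA sd- libraries, whereas vg, Pvf3 and CG1273 lie by the ctrl points and far from yki3SA.

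The rule for naming falls asks for 10 CPM in the higher group of run 1 and no overlap there. CG6912 and CR45600, under that limit of 10 CPM, fell by more than any gene it named. The falls it named were led by mthl8, a gene of the methuselah-like receptor family near the end of chromosome 3L. It was at 0 CPM in all 3 run 1 yki3SA sd- libraries against 10.3 to 13 CPM in run 1 ctrl, and at 7.29 and 5.85 CPM against 33.5 and 32.5 CPM in run 2. It was as low in sd-, at 0.161 to 0.781 CPM in run 1 and 5.72 and 5.66 CPM in run 2, while yki3SA libraries held 8.56 to 11.1 CPM in run 1 and 14.4 CPM in run 2 and were not called (edgeR adjusted p = 0.718). The edgeR log2 fold change was -3.75 ± 0.58 SE in yki3SA sd- (adjusted p = 0.00119) and -3.61 in sd- (adjusted p = 0.00463). The DNA repair nuclease gene mre11 fell by 1.30 ± 0.18 SE on the log2 scale (edgeR adjusted p = 0.000507), with 12.6, 7.43 and 15.8 CPM in run 1 against 33 to 37.5 CPM, and 31.3 and 32.1 CPM in run 2 against 55.3 and 55.7 CPM. It was called without libraries 1 and 2 too, at -1.06 (adjusted p = 0.00563).

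The remaining 6 of the 10, beside CG32368 and CG9150, were CG9691, CG17278 (peg), the Bax inhibitor gene BI-1, the enoyl-CoA hydratase gene CG6543 (Echs1), babos and CG2493. They fell by 1.23 to 1.75 on the log2 scale, and none was called without libraries 1 and 2. CG9691 was at the ctrl level in run 2 (88.2 and 74.8 CPM against 84.7 and 81.3 CPM), and the run 2 changes of the other 5 lay between -0.69 and -0.24. For BI-1 the run 1 yki3SA sd- libraries held 5.02, 4.55 and 12.6 CPM against 22.8 to 55.5 CPM in ctrl, and sd- library 3, which shares the features of libraries 1 and 2, held 7.09 CPM where the other sd- libraries held 52.4 and 51.2 CPM.

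Among the 10 largest rises named by the same rule, 5 were small nucleolar RNA genes. snoRNA:Me18S-U1356c held 20.3, 17 and 13.3 CPM in run 1 yki3SA sd- libraries against 0.298 to 0.815 CPM in ctrl, and at most 0.241 CPM in run 2; it was also higher in run 1 yki3SA, at 4.34 to 10.2 CPM. snoRNA:Psi28S-2876, snoRNA:Psi18S-531, snoRNA:Me28S-G3081a and snoRNA:Psi28S-3385a rose by 1.83 to 3.23 on the log2 scale, and none of these 4 was called without libraries 1 and 2. The other 5 were CG33509, Spn47C, Dscam4, the cuticle protein gene Cpr92A and the C-type lectin gene lectin-28C. Cpr92A held 8.62, 10.1 and 17.3 CPM in run 1 yki3SA sd- libraries against 2.56 to 5.35 CPM, and 6.88 and 7 CPM in run 2 against 1.74 and 1.61 CPM. It rose by 1.80 ± 0.34 SE in yki3SA sd- (edgeR adjusted p = 0.00948) and by 1.93 in sd- (adjusted p = 0.0134), and fell by 1.18 in yki3SA against ctrl.

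Of the 45 genes called without libraries 1 and 2, named here after their values were seen, several rested on run 2 alone. The xanthine dehydrogenase gene ry held 158 and 202 CPM in run 2 yki3SA sd- libraries against 22.3 and 13 CPM in ctrl, but 2.31, 4.55 and 5.63 CPM in run 1 against 5.98 to 9.3 CPM. The serpin gene Spn42De held 3.09 and 3.55 CPM against 0 and 0.132 CPM in run 2, and 9.26, 21.8 and 4.25 CPM against 4.58 to 7.26 CPM in run 1. Others moved alike in both runs. The Wwox tumour suppressor homologue gene held 1.29, 0.24 and 2 CPM against 7.54 to 9.89 CPM in run 1 and 12.1 and 13 CPM against 27.9 and 26.2 CPM in run 2. CG13044 held 38.2, 88.4 and 50 CPM against 22.1 to 33.4 CPM in run 1 and 10.7 and 12.5 CPM against 4.96 and 4.31 CPM in run 2.

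Against the shared ctrl, 249 genes (2.79% of those tested) turned over, with calls in opposite directions in yki3SA sd- and yki3SA. By comparison, 34 genes were called lower in both and 163 higher in both. lectin-28C rose by 1.80 ± 0.37 SE in yki3SA sd- (edgeR adjusted p = 0.013), where yki3SA gave -2.66. It held 44.1, 46.9 and 18.4 CPM in run 1 yki3SA sd- libraries against 8.85 to 15.6 CPM in ctrl, and 7.12 and 8.39 CPM in run 2 against 1.57 and 2.04 CPM. let-7-C, the host gene of the developmental timing microRNA let-7, rose by 2.05 ± 0.36 SE (edgeR adjusted p = 0.00441), where yki3SA gave -1.88; the rise was 0.96 without libraries 1 and 2 (adjusted p = 0.323), and library 3 held 12.1 CPM, inside the ctrl range of 10.6 to 17.6 CPM. The others named by the rule were CG9522, the serpin gene Spn43Ab, CG7296 and the transglutaminase gene Tg, all below 8 CPM in yki3SA sd- and ctrl.

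Gene lists placed these changes by role. The lists were compiled with earlier results of these data known, and each is described by its calls and median beside all genes tested, where 11.7% were called higher, 5.0% lower and the median was -0.03. Of 20 Yki target genes, 1 was called higher in yki3SA sd- and none lower, with a median of 0.05, whereas in yki3SA 14 were higher and 1 lower with a median of 0.85. The called gene was ex, an upstream Hippo component and Yki target: 180.2, 221 and 121 CPM in run 1 yki3SA sd- libraries, above the 62 to 87.8 CPM of run 1 ctrl, but 370.0 and 374 CPM in run 2, inside the 325 and 378 CPM of run 2 ctrl. kibra, another upstream component, stood at 52.1, 62.3 and 66.4 CPM in run 1 yki3SA sd- against 49.8 to 59 CPM in ctrl and 396 to 437 CPM in yki3SA. The JAK-STAT ligand gene upd3 stood at 0.378 and 0.502 CPM in run 2 yki3SA sd- libraries against 0.41 and 0.0987 CPM in ctrl and 9.6 CPM in yki3SA. Expression of th, which encodes the caspase inhibitor Diap1, was not called in either comparison.

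Of 35 Hippo pathway components, 9 were called higher and 2 lower in yki3SA sd-, with a median of 0.24. ft, ex, mask and CG5375 (Schip1) had the largest changes, 0.93, 0.87, 0.81 and 0.70 on the log2 scale, yet 0.11, 0.11, 0.02 and 0.07 in run 2 alone. No member was called without libraries 1 and 2, where the list's median was 0.06 and 0.489% of all genes were called.

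The medians of the eye differentiation lists lay nearer to ctrl in yki3SA sd- than in yki3SA, over members that went both ways. Of 15 retinal determination genes, 1 was called higher (dpp) and 1 lower (exd) with a median of 0.27, where yki3SA gave 1 higher and 10 lower with a median of -1.58. In run 1 alone 7 of these 15 were called higher and 3 lower (median 0.41), and in run 2 alone none was called (median 0.07). Of 15 proneural and furrow genes, sca, da and Dl were called higher and none lower (median 0.18), where yki3SA gave 13 lower and a median of -2.44. The proneural gene ato stood at 34.7 and 40.9 CPM in run 2 yki3SA sd- libraries, just under the 46.2 and 50.4 CPM of ctrl, where yki3SA stood at 1.36 CPM, and at 15.6, 14.6 and 37.8 CPM in run 1, below the 46.5 to 64.5 CPM of run 1 ctrl; it was not called (edgeR adjusted p = 0.109). Of 25 photoreceptor recruitment genes, 5 were called higher and none lower (median 0.15), against 1 higher and 19 lower in yki3SA (median -2.29). The called genes with the largest change were sdk, ru, aop and B-H1, at 0.88, 0.84, 0.73 and 0.65 on the log2 scale and 0.18 to 0.22 in run 2. No gene of these 3 lists was called without libraries 1 and 2, where the medians were 0.06, 0.04 and 0.15. Only 0.489% of all genes were called in that setting, so lists of this size would hold few or no calls at that share.

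Neuronal genes had the largest median among the lists of disc genes, and it was alike in both runs. Of 21 tested, 8 were called higher and none lower (median 0.57), where yki3SA gave 17 lower and a median of -1.98. The median was 0.56 in run 1, 0.52 in run 2 and 0.50 without libraries 1 and 2. None was called in that last setting, where 0.489% of all genes were called. In sd- the median was 0.27, with no calls. The synaptic active zone gene brp held 60.2, 62.5 and 46.3 CPM in run 1 yki3SA sd- libraries against 22.8 to 34.4 CPM in ctrl, and 113 and 101 CPM in run 2 against 63.8 and 53 CPM. It rose by 1.00 ± 0.31 SE (edgeR adjusted p = 0.0351). The microtubule-associated protein gene futsch held 422, 424 and 409 CPM against 189 to 219.5 CPM in run 1 and 81.7 and 71.7 CPM against 59.2 and 49.4 CPM in run 2, a rise of 0.86 ± 0.17 SE (edgeR adjusted p = 0.0112). Ank2 and Dscam1 rose by 1.13 and 0.86 in all libraries and by 0.41 and 0.05 in run 2. In sd- libraries brp stood at 23.4, 25.2 and 59.6 CPM in run 1 and 95.6 and 72.6 CPM in run 2, so that the run 2 sd- values also lay above ctrl. The summed level of 11 brain neuroblast markers was 2045 to 2973 CPM in run 1 yki3SA sd- libraries against 1981 to 2287 CPM in ctrl, and 729 and 739 CPM in run 2 against 687 and 691 CPM; its part was not tested.

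Antennal genes had 3 called higher of 16 (Poxn, B-H1 and ct; median -0.03), and 1 of 11 selector genes of other discs was called (zfh2, by 0.62). Of 20 Notch target genes, E(spl)mbeta-HLH and ct were called higher and none lower (median -0.25), where yki3SA gave 18 lower with a median of -2.37; the rise of E(spl)mbeta-HLH was 1.59 in run 1 and -0.0061 in run 2. In the EGFR list, 6 of 16 were called higher (aos, ru, aop and cic leading, 0.61 to 0.96) and the median was 0.27. In the Dpp list 4 of 15 were higher and 1 lower, led by brk at 1.22 in all and 0.14 in run 2 and by magu at 1.11 and -0.25. In the Wg list 3 of 19 were higher (arr, Axn and pan), and in the Hh list 1 of 11 was higher (ptc) and 1 lower (ihog). In run 1 and run 2 alone, the medians were 0.35 and 0.11 for the EGFR list, 0.33 and 0.11 for the Dpp list, 0.28 and 0.01 for the Wg list and -0.09 and -0.03 for the Hh list; in run 2, 3 EGFR, 1 Dpp, 1 Wg and 3 Hh genes were called higher and 0, 2, 1 and 0 lower, where 11.4% of all genes were called. None of these lists had a call without libraries 1 and 2, where their medians lay between -0.07 and 0.19 and 0.489% of all genes were called.

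The share of growth, stress and injury genes called in yki3SA sd- was near or below the 16.7% of all genes. Of 31 JAK-STAT, JNK and wound response genes, hop, Atf3 and dome were called higher (median 0.06), against 22 higher and 3 lower in yki3SA (median 0.94). The transcription factor gene Atf3 rose by 0.67 ± 0.20 SE (edgeR adjusted p = 0.0322), by 0.71 in run 1 and 0.70 in run 2, with 13 and 16.2 CPM in run 2 yki3SA sd- libraries against 9.68 and 8.59 CPM in ctrl and 65.8 CPM in yki3SA. Of 34 cell cycle and replication genes, 2 were higher (Orc1 and CycD) and 3 lower (E2f2, Mcm5 and Mcm6), with a median of -0.20, against 17 higher and 1 lower in yki3SA (median 0.50). The replication helicase gene Mcm6 held 66.7, 34.7 and 70.9 CPM in run 1 yki3SA sd- libraries against 72.1 to 84.1 CPM, and 85 and 88.9 CPM in run 2 against 103 and 105 CPM, a change of -0.38 ± 0.13 SE (edgeR adjusted p = 0.0417). Of 21 ribosome biogenesis genes, 2 were higher (pen and mbm) and 1 lower (Ns3), with a median of 0.17; both that rose were below 0 on the log2 scale in run 2. Of 15 apoptosis genes, the caspase genes Nc and Ice were called lower, by 0.58 and 0.51. In run 1 alone 6 cell cycle, 8 ribosome biogenesis, 5 JAK-STAT, JNK and wound response and 2 apoptosis genes were called higher. In the same order 10, 3, 5 and 4 were called lower, where 39.3% of all genes were called. In run 2 alone 1, 1, 3 and 1 were higher and 5, 3, 1 and 0 lower, where 11.4% of all genes were called. The run 2 median of the apoptosis list was 0.02. No gene of these growth, stress and injury lists was called without libraries 1 and 2, where the medians lay between -0.14 and 0.08. In that setting 0.489% of all genes were called.

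**Figure D5:**
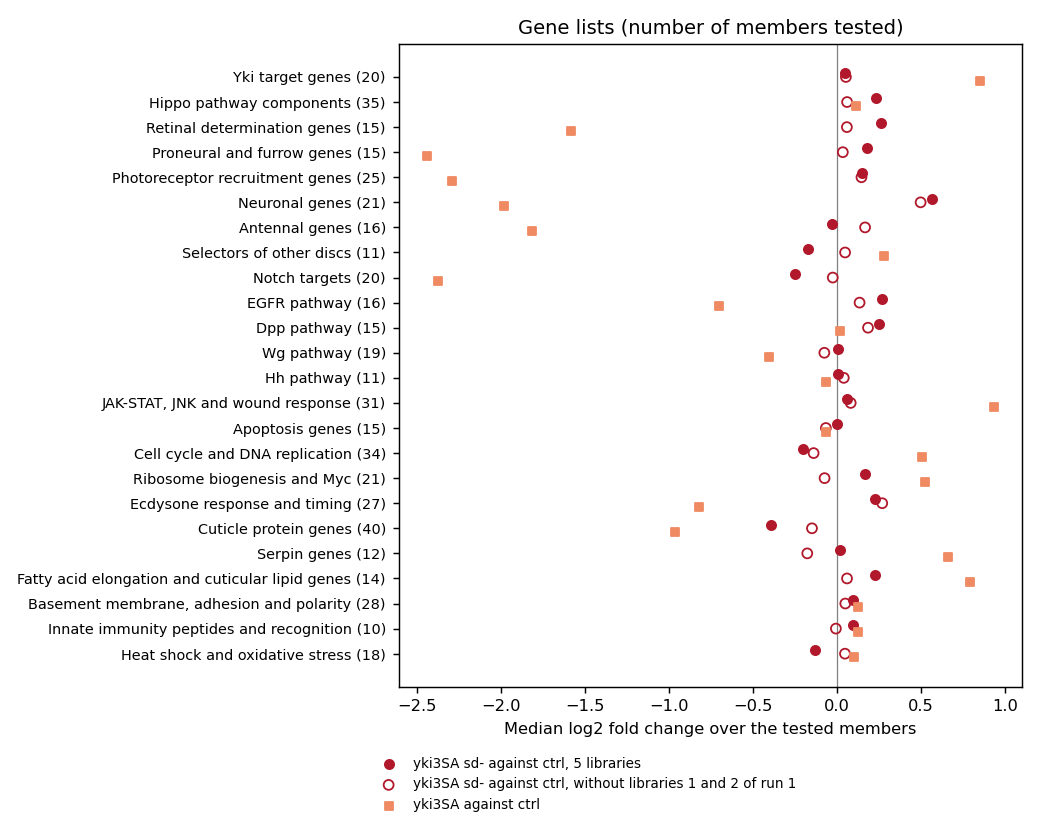
Median log2 fold change over the tested members of each list of disc, signalling, growth and stress genes, the marker lists of other cell types not included: yki3SA sd- against ctrl with all 5 libraries (filled red), the same without libraries 1 and 2 of run 1 (open red) and yki3SA against ctrl (orange squares). The plotted yki3SA sd- medians lie between -0.39 and 0.57, while those of yki3SA reach -2.44 and 0.94.

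Ecdysone response and timing genes had 8 of 27 called higher and none lower (median 0.23, and 0.34 in run 2), where yki3SA gave 7 higher and 14 lower (median -0.82). let-7-C, ImpL1, ImpL3 and ftz-f1 had the largest changes. The ecdysone-inducible gene ImpL1 held 10.4, 9.34 and 6 CPM in run 1 yki3SA sd- libraries against 1.28 to 9.96 CPM in ctrl, and 58.6 and 67 CPM in run 2 against 17.8 and 12.2 CPM, a rise of 1.44 ± 0.43 SE (edgeR adjusted p = 0.0307). The sd- libraries stood at 6.36 to 20.9 CPM in run 1 and at 54.8 and 39.5 CPM in run 2, a log2 fold change of 1.40 against ctrl (edgeR adjusted p = 0.727). ImpE2 stood at 3756 and 2853 CPM in run 2 yki3SA sd- libraries against 2408 and 2896 CPM in ctrl, with 0.807 CPM in the yki3SA library, and in run 1 at 946, 757 and 1375 CPM against 1424 to 3670 CPM. Of 40 cuticle protein genes 4 were higher and 1 lower (median -0.39); Cpr12A, at 86.9 to 123 CPM in run 1 yki3SA, was below ctrl in yki3SA sd-, by 1.54 on the log2 scale. Of 12 serpin genes 2 were higher and 1 lower (median 0.02), and of 14 fatty acid elongation and cuticular lipid genes CG17374 and CG1444 were higher (median 0.23). Of 28 basement membrane, adhesion and polarity genes, 6 were higher and none lower (median 0.10); the collagen gene Cg25C rose by 1.91 in run 1 and stood at -0.21 in run 2. None of 10 immunity genes was called, and of 18 heat shock and oxidative stress genes Hsp83 was higher and GstD1 and Sod lower (median -0.13). This list differed between the runs. In run 1 alone 0 of 17 were higher and 9 lower (median -0.43), where 39.3% of all genes were called. In run 2 alone 4 of 18 were higher and 1 lower (median 0.14), where 11.4% were called. The cuticle protein median was -0.56 in run 1 and -0.07 in run 2. Without libraries 1 and 2, where 0.489% of all genes were called, 1 cuticle protein gene and 1 serpin gene were called higher. In that setting no gene of the ecdysone, lipid, basement membrane, immunity and heat shock lists was called, and the ecdysone median was 0.27.

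Markers of other cell types were measured as a check on dissection. Of 12 hemocyte markers, 4 were called higher and 1 lower (median 0.60); the median was 1.02 in run 1 and -0.51 in run 2. The hemocyte gene Hml held 147, 173 and 54.4 CPM in run 1 yki3SA sd- libraries against 19.5 to 29.9 CPM in ctrl, and 9.38 and 15.8 CPM in run 2 against 18.8 and 15.8 CPM. Fat body markers had a median of -1.10 over 8 genes, with Lsp1gamma called lower; their sum was 34.9 to 202 CPM in run 1 yki3SA sd- libraries against 46.2 to 338 CPM in ctrl, and 11.7 and 16 CPM in run 2 against 33.7 and 336 CPM. Ring gland markers summed to 96.1 to 201 CPM in run 1 yki3SA sd- libraries against 56 to 294 CPM in ctrl, and to 1136 and 1292 CPM in run 2 against 254 and 568 CPM. Salivary gland markers summed to 60.5 and 511 CPM in run 2 yki3SA sd- libraries against 42.7 and 49.2 CPM in ctrl, and ng1 was at 0 in all 12 libraries. Of the 10 glia markers tested 1 was higher (moody) and 1 lower (wrapper), of 13 muscle and myoblast markers zfh1 was higher, of 9 brain neuroblast markers cas was higher, and none of 8 tracheal markers was called. Glia, tracheal and muscle markers summed to 614 to 1108, 978 to 1890.2 and 589 to 646 CPM in run 1 yki3SA sd- libraries, against 596 to 758, 1898 to 2525 and 652 to 739.6 CPM in run 1 ctrl. In run 2 they summed to 1162 to 1241, 1894 to 2167 and 234 to 237 CPM in yki3SA sd- libraries, against 1193 to 1281, 1672 to 1842 and 270.2 to 332 CPM in ctrl, so that the tracheal sum was below ctrl in run 1 and above it in run 2. No gene of these marker lists was called without libraries 1 and 2, where 0.489% of all genes were called. In that setting the medians were 3.37 for salivary gland, -2.68 for fat body and 1.51 for ring gland markers. With all libraries they were 1.60, -1.10 and 0.88. The medians of the other lists in that setting lay between -0.64 and 0.18. The salivary gland median was -2.62 in run 1 and 6.07 in run 2. The part of these cells in the results was not tested.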

How the data were processed

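RNA of eye-antennal discs was sequenced with a 3′ tag kit that keeps 1 tag per transcript, so levels are compared between samples and not between genes. The submitters' processing notes name cutadapt, FastQC, STAR 2.6.1d and the dm6 build; the counting step and its strand setting are not stated. The authors deposited raw counts per gene symbol. Here edgeR 4.0.16 in R 4.3.3 fitted 23 MARCM libraries (filterByExpr, TMM factors, group and run terms, robust quasi-likelihood test). Distances used log2 CPM with a prior count of 2 and exact permutation tests in scipy 1.17.1. Alternatives were other size factors and filters, DESeq2 1.42.0, limma 3.58.1 with voom, 2 groups alone, each run alone, a replicate block, and leaving out libraries. The edgeR script was tested on simulated data. No pair of libraries within a group agreed within sampling noise in a chi-square test of counts, so each was counted once. Whether equal library numbers pair the samples was not settled. The correlations of deviations between same-numbered yki3SA sd- and ctrl libraries in run 1 were 0.15, 0.08 and -0.25. In run 2 these groups held 2 libraries each, whose deviations mirror each other, so the check could not be read there. Gene positions are from the Ensembl BDGP6 annotation, whose coordinates are those of dm6, and current symbols are from RefSeq. No sequence is shown, and a gene of the ribosome biogenesis list is not reported here. The genes named were up to 10 largest rises and falls without overlap in run 1 and with 10 CPM or more in run 1, 10 genes staying low and 10 staying high, 6 returned in each direction, 6 turned over and up to 4 called members per list. Members and lists were chosen with earlier results of these data known.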

Additional observations from a re-analysis of the deposited data

Results flagged for a closer look

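Of 270 groups of 5 values examined, 14 held a library far from the other 4, where chance flags about 1 in 20 groups. The figure given for each is the gap to the nearest other value divided by the whole range. Among the 5 yki3SA sd- libraries, taken relative to the ctrl mean of their run, a library stood apart for lectin-28C (0.797), sm (0.815), CG9522 (0.726), B-H1 (0.859), Ns3 (0.744), Rel (0.758) and eyg (0.804). For CG9522, B-H1, Ns3, Rel and eyg this was library 2 of run 1, which held 275 CPM of B-H1 and 0 CPM of CG9522. For sm it was also library 2, at 66.8 CPM, and for lectin-28C it was library 3, at 18.4 CPM.

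Among the 5 run 1 ctrl libraries, one stood apart for Dscam4 (0.732), vg (0.717), ft (0.726), Dl (0.762), Twdlalpha (0.716), Lsp1gamma (0.729) and cas (0.739). For Lsp1gamma it was library 2, at 53.4 CPM, and for Dscam4 library 1, at 3.68 CPM.

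The change in yki3SA sd- against ctrl differed between the runs for 333 genes in edgeR's test of the interaction between group and run. Run 2 ctrl discs carried another FRT chromosome and driver than run 2 yki3SA sd- discs, so run and genotype background cannot be told apart there. The hemocyte gene PPO1, for example, had a log2 fold change of 2.32 in run 1 and -4.59 in run 2.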

How the results depend on the processing

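The count of 1491 genes called in yki3SA sd- against ctrl depended on the processing and on the samples that entered, and the cause was not tested. It was 820 with no filter on low counts, 2652 with DESeq2, 402 with limma-voom, 53 with the 2 groups alone, 3291 in run 1 alone, 45 without yki3SA sd- libraries 1 and 2 of run 1 and 64 also without sd- library 3. Leaving out 1 library at a time gave 101 to 2311. With the replicate number as a block it was 17. Same-numbered run 1 libraries showed no common sign of deviation, but 3 yki3SA sd- libraries are too few to exclude that the numbers pair the samples. The count in yki3SA against ctrl was 1876 over genes of at least 10 CPM and 5452 in run 2 alone, and that in sd- against ctrl was 1 over genes of at least 10 CPM, 18 with DESeq2, 18 in run 1, 423 in run 2 and 2 with the replicate block. The difference in distance between yki3SA sd- and yki3SA, 0.184, ranged between -0.091 and 0.458 when 1 yki3SA sd- library was left out. The mean level of the genes higher in run 2 yki3SA was -0.028 without libraries 1 and 2.

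Of the 134 named genes called, 34 kept direction and call without libraries 1 and 2, 99 lost the call and 1 reversed, aos, at -0.041 (and -0.088 also without sd- library 3). Under limma-voom 62 kept the call and 72 lost it, with the 2 groups alone 24 and 100, with the replicate block 14 and 120. In run 2 alone 58 kept it, 59 lost it and 13 reversed. The named genes include some picked because they were called without libraries 1 and 2, so these counts do not stand for all calls. Of all 1491 calls, 34 were also called without libraries 1 and 2 and 381 under limma-voom. With the 2 groups alone 49 were also called, with the replicate block 17 and in run 2 alone 284. The log2 fold changes that reversed in run 2 were yki 0.70 and CG32512 -0.82, both not called in all libraries, and Poxn -0.49, E(spl)mbeta-HLH -0.0061, magu -0.25, dome -0.044, Orc1 -0.16, pen -0.069, mbm -0.21, Cg25C -0.21, scrib -0.16, Sod 0.020, moody -0.15, Sr-CI -0.32 and Hml -0.43; in run 1 alone Sgs7, also not called in all libraries, reversed, at -3.27. Of genes called neither in all libraries nor in run 1 alone, ana and ry changed sign in run 1, at -0.59 and -0.87. Genes under a few CPM, such as Spn43Ab and Tg, rested on few reads in the shallower run 1 libraries.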

Other observations

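Some of the genes with a larger change in run 2 than in run 1 lie beside each other; they were picked after their values were seen. On chromosome 2L, CG33509 (21084605 to 21086506) and ppk13 (21086790 to 21088751), which encodes a channel of the pickpocket family, stood at no less than 4.92 and 9.08 CPM in the run 2 yki3SA sd- libraries, against at most 0.103 CPM in run 2 ctrl. CG33509 was higher in run 1 too, at 10, 12.7 and 7.51 CPM in yki3SA sd- libraries against 2.29 to 5.7 CPM in ctrl. The run 2 sd- libraries, also at most 0.0682 CPM, did not share this. On chromosome 3R, l(3)87Df (13030913 to 13031598) stood at 85.7 and 67.2 CPM against 6.19 and 5 CPM in ctrl, next to ry, and the sd- libraries stood at 5.14 and 5.83 CPM. CG18853 was at 0 CPM in both run 2 yki3SA sd- libraries against 3.76 and 4.8 CPM in ctrl.

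CR40469, a non-coding RNA gene near the end of the X chromosome (122493 to 122706), held 15947, 1899 and 21280 CPM in run 1 yki3SA sd- libraries and 20931 to 27038 CPM in run 1 sd- libraries, against 307 to 433 CPM in run 1 ctrl and 311 to 653 CPM in run 1 yki3SA. In run 2 it was at 0 CPM in both yki3SA sd- libraries, against 28.3 and 25.7 CPM in ctrl. The run 2 sd- libraries held 14.4 and 13.5 CPM and the run 2 yki3SA library 27.3 CPM.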
